A study of Mus musculus with 19 samples.

Results

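Collagens are extracellular matrix proteins built from 3 polypeptide chains, called alpha chains, each encoded by its own gene. All protein-coding mouse genes whose symbol has the form of a collagen alpha chain (Col, a type number, a, a chain number) were taken from the GENCODE M21 annotation, which gave 44 genes among the 35598 genes measured. Of these, 22 were expressed, meaning that their deposited TPM (abundance relative to all transcripts, corrected for transcript length) averaged at least 1 in at least 1 group of libraries. Low counts left 29 genes that could be tested and 15 that could not.

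Primary myoblasts, the precursor cells of skeletal muscle, had been isolated from mouse hind limb and grown in culture. They were sampled as proliferating myoblasts in growth medium (24 h), as differentiated myotubes (48 h) and as fused myotubes (72 h). The WT (wild-type) label covered 3, 3 and 4 libraries at these stages, and the Glud1KO label, written here as KO-labelled, covered 3, 2 and 4. Glud1 encodes glutamate dehydrogenase, a mitochondrial enzyme that interconverts glutamate and 2-oxoglutarate, and the series asks how its loss affects the fate of muscle precursor cells. The labels do not say how the gene was deleted, in which cells, or whether numbered biological replicates are separate animals. The errors given therefore describe variation between libraries. An SD is the spread within a group. An SE of a log2 value was derived from that value and the F statistic of the edgeR fit of all 19 libraries. In the names given to the deposited libraries the KO mark stands on both groups, with a T added for the KO-labelled ones, and the labels were followed.

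Libraries held 16168131 to 30742634 estimated counts. KO-labelled over WT, Glud1 itself had a log2 ratio of -0.02 in myoblasts, -0.09 in differentiated and -0.02 in fused myotubes (edgeR's quasi-likelihood test, adjusted p of 0.849, 0.193 and 0.748). With effective transcript lengths in the fit the ratios were -0.26, -0.31 and -0.34 (adjusted p of 0.000708, 0.000244 and 1.58e-05). As Glud1 RNA was nearly as abundant in both, the directions between genotypes rest on the labels. The myogenic markers Pax7, Myf5, Myod1, Myog, Des, Cdh15 and Chrna1 summed to 2747 to 3129 CPM (counts scaled to library size with edgeR's TMM factors) in myoblasts and to 9999 to 11236 CPM later. Of 10 fibroblast markers, 7 (Dcn, Lum, Dpt, Pi16, Dpp4, Tcf21 and Mfap5) stayed under 0.5 CPM in every library, which leaves Pdgfra, Ly6a and Cd34. The whole list summed to 8.56 to 9.26 CPM in WT and 5.17 to 6.04 CPM in KO-labelled myoblasts, and to 1.52 to 4.7 CPM later. The highest summed level in a library was 1.25 CPM for endothelial, 1.78 for leukocyte and 2.74 for Schwann cell markers, with 3 of 5, 4 of 5 and 3 of 4 of these genes under 0.5 CPM in every library. Tendon markers summed to 29.7 to 167 CPM with 3 of 5 (Tnmd, Fmod and Thbs4) under 0.5 CPM throughout, and cartilage markers to 9.73 to 80.6 CPM with 3 of 4 (Acan, Matn1 and Comp) under it, which leaves Sox9. Pericyte or smooth muscle markers summed to 33.7 to 182 CPM, with 1 of 5 (Kcnj8) under 0.5 CPM throughout. In bulk RNA, fewer cells of a type and less RNA per cell cannot be told apart. The first principal component of all genes, which held 77.7% of the variance and ordered the stages, placed KO-labelled differentiated myotubes at 61.19 to 61.78, between WT differentiated myotubes at 33.89 to 37.53 and WT fused myotubes at 89.33 to 90.57.

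Collagen chains fold as triple helices in the endoplasmic reticulum, are secreted, and assemble outside the cell. Fibril-forming chains (types I, II, III, V, XI, XXIV and XXVII) give banded fibrils, type IV chains give the network of basement membranes, and type VI chains give beaded filaments around muscle fibres. Other families attach to fibrils, span the plasma membrane, or carry heparan sulfate in basement membranes. In muscle, the myoblast sits on a basement membrane, and much of the fibrillar collagen around fibres is known to come from fibroblasts. Type XXV is a transmembrane collagen of muscle cells known for its part in motor innervation, and type XIX is a fibril-associated collagen found at basement membranes.

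The DNA just before the transcription start is shown for 3 chains that stand for the main patterns described below, together with the stretch that Col4a1 and Col4a2 share. Col25a1 rose with differentiation, Col3a1 fell with it, and Col8a1 was lower under the KO label at every stage. Each window is the 250 bases upstream of the RefSeq start on build GRCm38.p6, written 5′ to 3′ on the strand of the gene. Capitals mark every CANNTG (the E-box, the core bound by myogenic basic helix-loop-helix factors) and every GGGCGG (the GC box) on either strand; GGGCGG reads CCGCCC where it lies on the other strand. The windows lie at chr3:130180595-130180844 (plus strand) for Col25a1, chr1:45311288-45311537 (plus strand) for Col3a1 and chr16:57754738-57754987 (minus strand) for Col8a1, and overlap no annotated exon. The main Col25a1 transcript of GENCODE starts 46 bases past the RefSeq start, and those of the other two start at it.
Col25a1: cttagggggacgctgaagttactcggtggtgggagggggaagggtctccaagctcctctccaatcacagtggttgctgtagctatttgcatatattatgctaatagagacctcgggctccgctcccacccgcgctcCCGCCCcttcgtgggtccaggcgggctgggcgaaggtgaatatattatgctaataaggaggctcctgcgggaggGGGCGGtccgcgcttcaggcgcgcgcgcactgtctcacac
Col3a1: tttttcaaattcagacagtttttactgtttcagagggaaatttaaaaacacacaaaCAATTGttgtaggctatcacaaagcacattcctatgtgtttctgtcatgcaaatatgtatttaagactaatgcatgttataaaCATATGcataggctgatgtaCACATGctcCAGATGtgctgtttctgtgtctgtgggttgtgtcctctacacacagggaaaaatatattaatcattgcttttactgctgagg
Col8a1: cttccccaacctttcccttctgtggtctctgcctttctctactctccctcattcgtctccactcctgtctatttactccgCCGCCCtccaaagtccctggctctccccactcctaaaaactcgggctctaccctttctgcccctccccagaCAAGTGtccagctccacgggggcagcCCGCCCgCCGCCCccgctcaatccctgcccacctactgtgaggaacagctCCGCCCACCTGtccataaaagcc
Col4a1 and Col4a2, chr8:11312805-11312826, plus strand: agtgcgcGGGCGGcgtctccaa

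Col3a1 has 4 E-boxes, no GC box and a GC content of 35.2%, while Col8a1 has 2 E-boxes, 4 GC boxes and 60.8%, and Col25a1 has no E-box, 2 GC boxes and 60.4%. The window of Col25a1 also holds the run atatattatgctaata 2 times, starting 161 and 75 bases before the start. An exact repeat of 16 bases or longer was present in 1.98% of all 32851 windows of this length and in 2 of the 38 windows matched to collagen chains. Those 38 windows belonged to 35 of the 44 genes. CANNTG was present in 19 of them against 66.2% of all windows, CAGCTG (a subset of CANNTG) in 15.8% against 13%, and CCAAT in 34.2% against 33.8%. TATAAA was present in 13.2% against 12.4%, and GGGCGG in 57.9% against 32.7%. These matches describe letters, and the windows of collagen chains and of all genes were not matched for base composition.

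Col4a1 and Col4a2, whose products join in the same trimers, lie head to head on chromosome 8, and their annotated first exons overlap over the 22 bases shown. Col3a1 and Col5a2 lie tail to tail on chromosome 1 with 24615 bases between them. The untested pair Col4a3 and Col4a4 starts 72 bases apart, and Col4a5 and its untested neighbour Col4a6 start 1309 bases apart. Reads from opposite strands could not be separated where exons overlap, because the sources used here do not give strand use in counting. Among tested chains this touches Col4a1 and Col4a2 over 22 bases, Col10a1 with Nt5dc1 over 18 bases and Col9a3 with Tcfl5 over 234 bases. It also touches Col4a2 with the low transcript Gm15419 over 43 bases, and Col5a1 with a pair of low transcripts. Col20a1 overlaps the same-strand gene BX649560.1, which reached 546 counts in a library against 45 for Col20a1, so its values are uncertain.

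Many chains were close to undetected. The 15 chains too low to test never exceeded 12 counts in a library or a group mean of 0.232 TPM. They were Col6a2, Col15a1, Col14a1, Col22a1, Col11a1, Col8a2, Col4a3, Col4a4, Col4a6, Col6a4, Col6a5, Col6a6, Col9a1, Col9a2 and Col28a1. Among them are the type VI partner Col6a2, the basement membrane chain Col15a1 of muscle, and Col22a1, a chain known from the muscle-tendon junction. A further 7 chains passed the count filter but not the threshold of 1 TPM, namely Col1a1, Col2a1, Col4a5, Col6a1, Col9a3, Col20a1 and Col23a1. The expressed chain nearest to the threshold was Col6a3 at 1.11 TPM, and the nearest below it were Col2a1 at 0.928 and Col6a1 at 0.689 TPM. By group, 18, 16 and 12 chains reached 1 TPM in WT myoblasts, differentiated and fused myotubes, and 17, 14 and 13 in the KO-labelled groups.

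**Figure D1:**
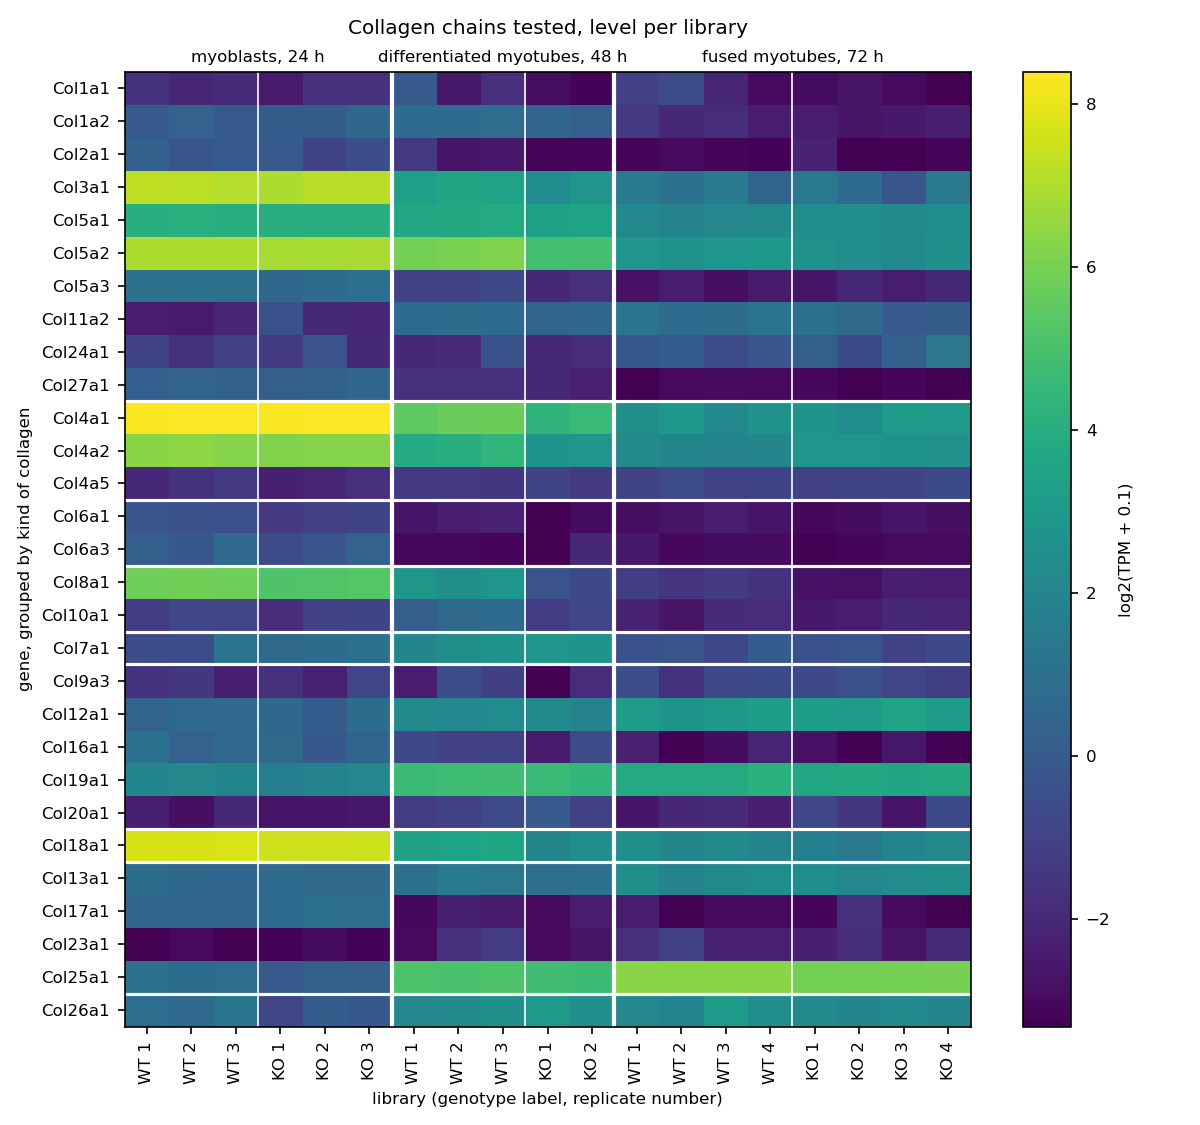
Level of the 29 testable collagen chains in each of the 19 libraries, as log2(TPM + 0.1) in colour, with genes grouped by kind of collagen and libraries by stage and genotype label. The bright rows of myoblasts (Col4a1, Col18a1, Col3a1, Col5a2, Col4a2, Col8a1) darken toward fused myotubes, where Col25a1 is the brightest row.

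Collagen RNA as a whole fell steeply with differentiation. In WT libraries the 44 genes held 0.36% ± 0.00631 (SD, n = 3) of all counts in myoblasts, 0.0971% ± 0.00637 (n = 3) in differentiated and 0.0505% ± 0.00097 (n = 4) in fused myotubes. In KO-labelled libraries they held 0.334% ± 0.00223 (n = 3), 0.0566% ± 0.0018 (n = 2) and 0.045% ± 0.00112 (n = 4). Summed TPM, which corrects for length, was 976, 262 and 146 in WT and 914, 154 and 128 in KO-labelled cells. The gap between genotype labels was widest in differentiated myotubes on both scales.

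The make-up changed as well as the amount. In WT myoblasts Col4a1 led with 323 TPM, or 33.1% of collagen TPM, followed by Col18a1 at 206, Col3a1 at 146, Col5a2 at 124, Col4a2 at 80.1 and Col8a1 at 56.2 TPM. In WT differentiated myotubes the order was Col5a2 at 65.5, Col4a1 at 50.8, Col25a1 at 33.8 and Col19a1 at 26.5 TPM. In WT fused myotubes Col25a1 alone held 53.9% of collagen TPM at 78.4 TPM, ahead of Col19a1 at 15.1 and Col12a1 at 7.95 TPM. Transmembrane collagens went from 0.474% of collagen TPM to 13.9% and 57.3% across the WT stages, and from 0.475% to 18.7% and 52.2% across the KO-labelled ones. Type IV chains went the other way, from 41.4% to 26.1% and 7.14% in WT, and from 43.5% to 18.8% and 10.9% in KO-labelled cells. Levels next to each other in the fused myotubes, such as Col5a2 at 6.82 and Col4a1 at 5.87 TPM, were compared between genes on TPM only and not tested.

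**Figure D2:**
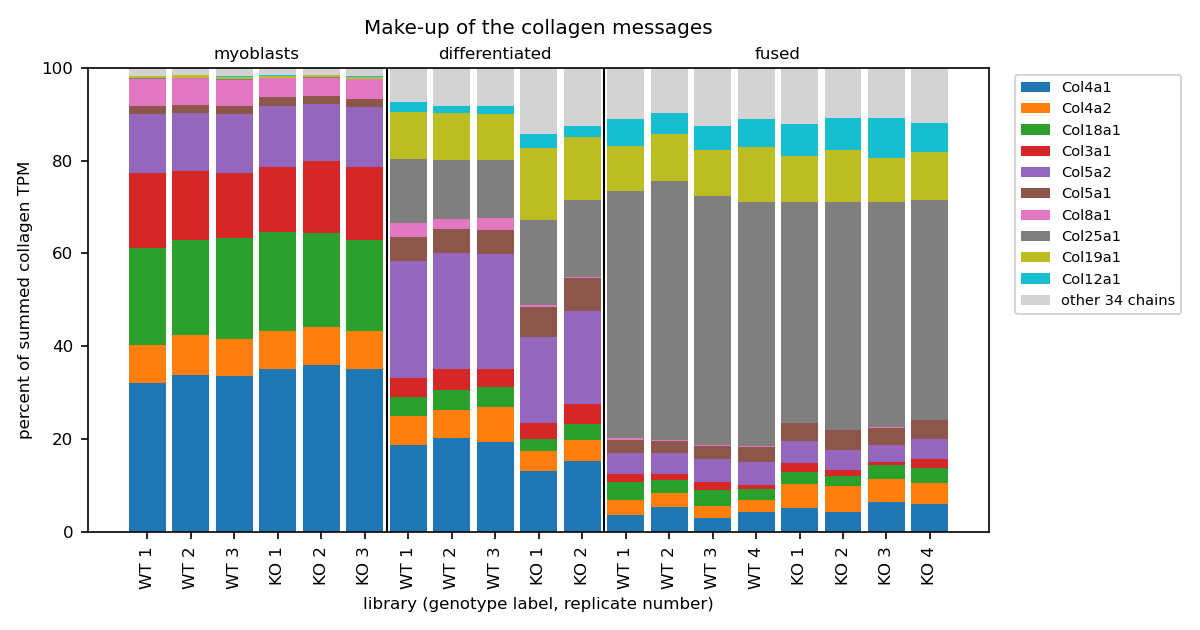
Percent of summed collagen TPM held by 10 chains and by the other 34, stacked, one bar for each library. Col4a1, Col18a1 and Col3a1 fill most of the myoblast bars, and Col25a1 fills 48.2% (KO-labelled mean) to 53.9% (WT mean) of the fused myotube bars.

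Across the WT stages nearly every testable chain changed. From myoblasts to differentiated myotubes 12 chains rose and 15 fell of the 29 tested (edgeR's quasi-likelihood test, Benjamini-Hochberg adjusted p under 0.05), where 85% of all 15123 genes tested were called (42.4% higher and 42.6% lower). From differentiated to fused myotubes 8 rose and 16 fell, against a background of 75.1% (37.4% higher and 37.7% lower). From myoblasts to fused myotubes 11 rose and 16 fell, against 85.5% (42.2% higher and 43.4% lower). The counts called are close to the background, so the direction and size for each chain carry the description. The median log2 change of the 29 chains was -0.217, -1.54 and -1.73 in these comparisons, and that of all genes was 0.0194, -0.0113 and -0.0126. The comparisons share libraries, as each stage enters more than one. Across the WT stages, fibroblast markers summed to 8.56 to 9.26, 1.52 to 2.18 and 3.15 to 4.7 CPM. Pericyte or smooth muscle markers summed to 40.2 to 44.5, 73.4 to 83.8 and 168 to 174 CPM. Tendon markers held 29.7 to 32.4, 135 to 148 and 75.9 to 92.4 CPM. Cartilage markers held 67.7 to 72.6, 14.3 to 15.7 and 15.9 to 19.6 CPM. The part of these lists in the collagen changes was not tested.

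Basement membrane chains were among the largest falls. Col4a1, which pairs with Col4a2 in the standard type IV trimer, had 824, 850 and 859 CPM in WT myoblasts, 142, 139 and 172 in differentiated and 16.4, 15.9, 16 and 15.4 in fused myotubes. No library of one stage overlapped another. The fall over the whole course was 53.1-fold (log2 -5.73 ± 0.065 SE, edgeR adjusted p = 3.06e-31). Col4a2 fell less, by 15.3-fold, from 336, 351 and 362 CPM to 79.3, 78.1 and 101 and then to 23.1, 23.7, 22 and 22.8. The TPM ratio of Col4a1 to Col4a2 went from 3.93 to 4.21 in WT myoblasts to 2.59 to 3.29 and 1.16 to 1.86, so the pair did not fall in step. Col4a5, a minor type IV chain of muscle and other basement membranes, rose 3.51-fold but from 0.605 to 0.668 CPM to only 2.06 to 2.66.

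Col18a1, a basement membrane multiplexin whose C-terminal fragment is endostatin, dropped early. It had 752, 742 and 809 CPM in WT myoblasts, 41.8, 42.5 and 52.7 in differentiated and 16.8, 14.1, 16.9 and 15.1 in fused myotubes. Most of the fall, 16.7-fold, came in the first step (log2 -4.06 ± 0.066, edgeR adjusted p = 1.12e-27). A single transcript, ENSMUST00000081654, held 90.7% or more of its estimated counts in every WT library.

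Fibril-forming chains fell on different schedules. Col3a1, the homotrimer of reticular fibrils, had 281, 279 and 286 CPM in WT myoblasts, 24.4, 23 and 25.6 in differentiated and 5.3, 4.57, 5.12 and 4.29 in fused myotubes. Col5a2, which nucleates fibrils in trimers with Col5a1, had 520, 526 and 528 CPM, then 288, 296 and 330, then 33, 31.7, 36.5 and 38.5. Thus Col3a1 fell 11.6-fold in the first step and 5.08-fold in the second, whereas Col5a2 fell 1.72-fold and then 8.7-fold (edgeR adjusted p of 8.67e-28, 6.06e-19, 1.05e-12 and 1.93e-24).

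Col5a1 stayed near its myoblast level until fusion, at 107, 113 and 111 CPM, then 89.6, 100 and 108, then 31.6, 29.7, 33.9 and 37.2. The first 2 stages overlapped, and the change between them was small (1.11-fold, edgeR adjusted p = 0.0195). That call was kept in 9 of 16 alternatives. Among its losses were DESeq2 (adjusted p = 0.108) and leaving out WT myoblast replicate 2 (0.0646) or WT differentiated replicate 1 (0.211). It was also lost with effective transcript lengths and in a fit of only the libraries compared. The TPM ratio of Col5a1 to Col5a2 rose from 0.129 to 0.139 in WT myoblasts to 0.202 to 0.213 and 0.6 to 0.646. Col5a3, the third type V chain, fell 29.2-fold over the course, from 10.2 CPM in each myoblast library to 2.04, 2.26 and 2.75 and then 0.274, 0.317, 0.247 and 0.495.

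Type I collagen was scarce throughout. Col1a2, the alpha-2 chain, had 3.52, 4.06 and 3.71 CPM in WT myoblasts, 6.45, 5.96 and 6.76 in differentiated and 0.959, 0.761, 0.863 and 0.371 in fused myotubes, a rise of 1.71-fold followed by a fall of 8.85-fold (edgeR adjusted p of 1.25e-05 and 1.12e-14). Col1a1, the alpha-1 chain that makes up the larger part of type I trimers, stayed between 0.165 and 1.04 CPM in all 10 WT libraries and passed in no WT comparison. Its TPM was below that of Col1a2 in all WT myoblast and differentiated libraries, with ratios of 0.12 to 0.263 and 0.0442 to 0.525. Both chains sat far below Col3a1 and Col5a2 in myoblasts, where Col1a2 averaged 0.981 TPM and Col1a1 0.182 TPM.

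The other fibril-forming chains moved both ways at low levels. Col27a1, a chain known from cartilage, fell 56.2-fold from 4.43, 4.71 and 4.71 CPM to 0, 0.127, 0.123 and 0.0824 in fused myotubes, by way of 0.711, 0.697 and 0.845. Col2a1, the main cartilage chain, fell 14.1-fold in the first step, from 2.43, 2.64 and 2.74 CPM to 0.19, 0.261 and 0.106. These lower levels rest on a few counts in each library. Col11a2, a chain of fine fibrils, rose 22.8-fold, from 0.422, 0.303 and 0.434 CPM to 4.84, 6.23 and 5.42 and then 9.77, 7.04, 8.82 and 10.2. Col24a1 had 1.51, 1.04 and 1.8 CPM, then 0.759, 0.74 and 0.986, then 4.29, 4.44, 3.15 and 4.41. Its rise in the second step was 4.86-fold, and its fall in the first was not called without WT myoblast replicate 3 (edgeR adjusted p = 0.072). With effective transcript lengths in the fit that fall was log2 -0.22 (0.743) against -0.81, the later rise of Col24a1 was 1.65 against 2.28, and the fall of Col2a1 was -3.21 against -3.81.

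Beaded filament chains were barely detected. Col6a3 had 2.64, 3.72 and 4.61 CPM in WT myoblasts, 0.0949, 0.0435 and 0.106 in differentiated and 0.274, 0.127, 0.247 and 0.0824 in fused myotubes. Col6a1 had 2.07, 1.86 and 1.84 CPM in WT myoblasts and at most 0.387 CPM in the later WT stages. Col6a3 fell 41.6-fold and Col6a1 6.57-fold in the first step (edgeR adjusted p of 5.46e-13 and 1.65e-08). With Col6a2 under the filter, all type VI chains together held 0.204% of collagen TPM in WT myoblasts.

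Col8a1, a short-chain network collagen of vessel walls and other subendothelial matrices, had the largest fall of all 29 chains in WT cells. It had 176, 181 and 175 CPM in myoblasts, 25.2, 18.8 and 24.5 in differentiated and 1.28, 0.888, 1.11 and 0.865 in fused myotubes, a total of 170-fold (log2 -7.41 ± 0.097, edgeR adjusted p = 6.26e-30). The last level rests on 14 to 28 counts in each library. Its usual partner Col8a2 stayed under the filter. Col10a1, the related chain of growth plate cartilage, peaked in differentiated myotubes at 2.42, 3.53 and 3.66 CPM, from 0.633, 0.951 and 0.902 before and 0.274, 0.127, 0.432 and 0.453 after.

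Of the 11 chains that rose from WT myoblasts to fused myotubes, 3 were transmembrane (Col25a1, Col13a1 and Col23a1) and 3 fibril-associated (Col19a1, Col12a1 and Col9a3). The other 5 were Col11a2, Col24a1, Col4a5, Col7a1 and Col26a1. Col25a1 had 6.47, 5.4 and 5.58 CPM in WT myoblasts, 127, 125 and 131 in differentiated and 303, 313, 316 and 314 in fused myotubes. The stages were far apart, the rise was 53.3-fold in all (log2 5.74 ± 0.055, edgeR adjusted p = 2.1e-32), and 1 transcript, ENSMUST00000106353, carried 74.8% to 84.8% of its estimated counts in every WT library. Col19a1 had 10.8, 12.1 and 11 CPM, then 77.9, 81.9 and 86.5, then 46.1, 47.8, 48.6 and 60.2, a rise of 7.3-fold followed by a fall of 1.61-fold. About as many of its counts went to a processed transcript, ENSMUST00000144297 (43.1% to 53.8% in WT libraries), as to the longest coding one.

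Col13a1, a transmembrane collagen of the neuromuscular junction, rose 3.94-fold from 3.16, 2.85 and 2.84 CPM to 12.9, 9.33, 11.7 and 12.4, and its transcripts changed places. ENSMUST00000105453 held 32.7% to 49.1% of its counts in WT myoblasts and at most 0.918% in WT fused myotubes, where ENSMUST00000105454 held 84.6% to 90.3%. In KO-labelled fused myotubes the first was at 0 in all 4 libraries and the second at 79.1% to 95.7%. These shares are pseudoalignment estimates for closely related transcripts. Col17a1, the hemidesmosomal collagen of skin, had 3.76, 4.02 and 4.24 CPM in WT myoblasts and 0.137, 0, 0.123 and 0.124 in fused myotubes, a fall of 37.3-fold. Col23a1, another transmembrane chain, rose from 2 counts in the 3 WT myoblast libraries together to 56 in the 4 fused ones, a ratio of 29.1 with a 95% exact interval of 7.7 to 247 that covers counting error only. From myoblasts to differentiated myotubes Col23a1 went from 2 to 15 counts, a ratio of 8.41 (1.96 to 75.8).

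Col12a1, which decorates the surface of type I fibrils, rose 2.16-fold in the first step on counts, from 5.91, 7.61 and 6.45 CPM to 14.5, 13.1 and 15.3, and held 15.4, 12.9, 16.8 and 15.9 CPM in fused myotubes. With effective lengths the first rise was log2 1.87 against 1.11. On TPM it still climbed from 4.67 to 7.95 between the last 2 stages. Beside this, a short retained-intron transcript, ENSMUST00000122827, went from 7.92% to 8.97% of its counts in WT differentiated to 26% to 31.5% in WT fused myotubes. Col7a1, the anchoring fibril chain of skin, was a transient: it had 1.23, 1.99 and 1.6 CPM, then 11.6, 15.5 and 14, then 2.1, 1.97, 2.22 and 2.47. Its small net rise over the whole course was lost, at log2 -0.09 (edgeR adjusted p = 0.83), when effective transcript lengths entered the fit, and without WT myoblast replicate 1 (0.139) or WT fused replicate 4 (0.0717). That rise was also lost without TMM, and with a replicate term in the fit. It was kept in 11 of 17 alternatives.

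Col26a1 had 1.13, 1.38 and 1.27 CPM in WT myoblasts, 4.98, 6.01 and 6.3 in differentiated and 9.36, 9.52, 8.08 and 8.37 in fused myotubes, a rise of 7.02-fold. Col16a1, a fibril-associated chain, had 3.76, 3.67 and 3.88 CPM, then 0.806, 0.435 and 0.634, then 0.137, 0, 0.123 and 0.0824, a fall of 39.8-fold. Neither chain had overlapping stages. With effective lengths the rise of Col26a1 was log2 1.83 against 2.81, and the fall of Col16a1 was -4.65 against -5.32. In KO-labelled myoblasts Col16a1 was at 2.52, 2.39 and 2.81 CPM, below all 3 WT libraries without passing the test.

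**Figure D3:**
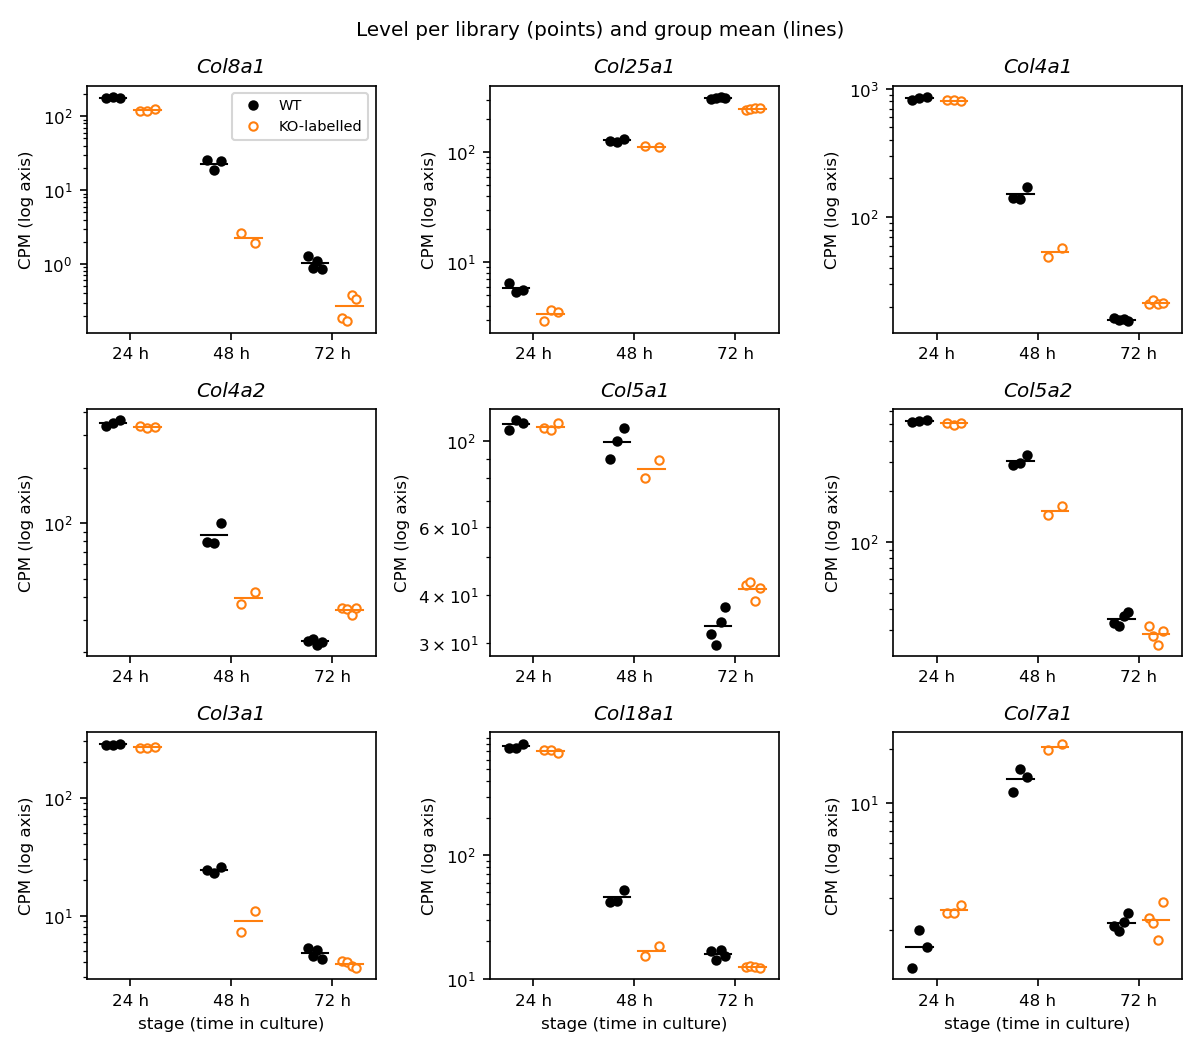
CPM on a log axis for 9 chains in each library, WT as filled and KO-labelled as open points, lines at group means, stages at 24, 48 and 72 h. Col8a1 and Col25a1 are lower under the KO label at all stages, while Col4a1, Col4a2 and Col5a1 are lower at 48 h and higher at 72 h.

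Of the 29 chains 1 was higher and 5 were lower in KO-labelled myoblasts, or 20.7% of them, where 11.6% of all genes tested were called (4.86% higher and 6.69% lower, edgeR with Benjamini-Hochberg adjustment). A fit of only the libraries compared called 10 chains, 1 higher and 9 lower, and 2625 of 13325 genes in all, against 1747 of 15123 in the fit of all libraries. The median log2 difference of the chains was -0.087 and that of all genes 0.0141. The abundant chains Col4a1, Col4a2, Col18a1, Col3a1, Col5a1 and Col5a2 were not among them, with log2 differences of -0.06, -0.07, -0.13, -0.09, -0.02 and -0.05 and SEs of 0.045 to 0.058. Of the abundant chains only Col8a1 passed.

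Col8a1 had 118, 117 and 124 CPM in KO-labelled against 176, 181 and 175 in WT myoblasts (1.48-fold lower, log2 -0.57 ± 0.053, edgeR adjusted p = 1.84e-08). Col25a1 had 2.89, 3.7 and 3.5 against 6.47, 5.4 and 5.58 CPM (1.74-fold lower, log2 -0.80 ± 0.094, edgeR adjusted p = 9.27e-07). Neither pair of groups overlapped.

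The remaining calls in myoblasts were of low chains. Col24a1 had 0.773, 0.72 and 0.622 CPM against 1.51, 1.04 and 1.8, Col6a1 had 0.831, 1.05 and 1.21 against 2.07, 1.86 and 1.84, and Col6a3 had 1.86, 1.9 and 2.19 against 2.64, 3.72 and 4.61. Col7a1 was higher, with 2.46, 2.49 and 2.75 against 1.23, 1.99 and 1.6 CPM. Their edgeR adjusted p-values were 0.0114, 0.015, 0.00582 and 0.0104, and all 4 calls were lost with effective transcript lengths in the fit. There the log2 difference stayed as large for Col6a1 (-0.92, adjusted p = 0.0704) and Col7a1 (0.93, 0.196) but shrank for Col6a3 (-0.44, 0.541) and Col24a1 (-0.14, 0.951). Each call also ended when 1 library was left out: WT replicate 1 for Col6a1 and Col7a1, WT replicate 3 for Col24a1 and Col6a3, and likewise KO-labelled replicate 1 for Col6a1 and replicate 3 for Col24a1 (edgeR adjusted p of 0.0531 to 0.1). Marker genes also differed, where 6.69% of all genes tested were lower and 4.86% higher. Of 10 fibroblast markers 3 were tested and 1 was lower, Ly6a at 3.08 against 5.89 CPM, and the sum of all 10 was 5.17 to 6.04 CPM in KO-labelled against 8.56 to 9.26 in WT myoblasts. Of 4 tested pericyte or smooth muscle markers 2 were lower (Rgs5 and Cspg4), and that list summed to 33.7 to 36.7 against 40.2 to 44.5 CPM. Of the 7 myogenic markers 2 were lower (Myog and Des), with sums of 2747 to 2835 against 2976 to 3129 CPM. On the first principal component KO-labelled myoblasts lay at -165.54 to -162.71 and WT myoblasts at -159.44 to -157.17. The labels did not overlap, and the KO-labelled libraries lay farther from the later stages. The part of this position and of these markers in the collagen differences was not tested.

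Differentiated myotubes showed the widest collagen difference between the labels. Of the 29 chains 2 were higher and 12 were lower in the KO-labelled libraries, or 48.3% of them, where 25.2% of all genes tested were called (11% higher and 14.1% lower). The median log2 difference was -0.991 for the chains and -0.0117 for all genes. The lower chains included type IV (Col4a1, Col4a2), type V (Col5a1, Col5a2 and the scarce Col5a3), Col3a1, Col18a1 and Col8a1. The KO-labelled group has 2 libraries, so its spread is taken from the shared fit.

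Col8a1 differed most, at 2.62 and 1.94 CPM against 25.2, 18.8 and 24.5 in WT (10-fold lower, log2 -3.32 ± 0.15, edgeR adjusted p = 2.6e-15). Col4a1 had 49 and 57.6 against 142, 139 and 172 CPM (2.84-fold lower, log2 -1.50 ± 0.072, edgeR adjusted p = 1.7e-14), and Col4a2 had 36.6 and 42.4 against 79.3, 78.1 and 101 CPM (2.19-fold lower, edgeR adjusted p = 8.61e-11). Col18a1 had 15.2 and 18.4 against 41.8, 42.5 and 52.7 CPM, 2.73-fold lower. In each of these chains both KO-labelled libraries lay below all WT libraries of the stage and, except for Col18a1 in 1 library, above the WT fused ones, which reached 1.28 CPM for Col8a1, 16.4 for Col4a1, 23.7 for Col4a2 and 16.9 for Col18a1.

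Among fibril-forming chains, Col3a1 had 7.22 and 10.9 against 24.4, 23 and 25.6 CPM (2.69-fold lower), a call that ended at log2 -0.73 (edgeR adjusted p = 0.0745) with effective lengths. Col5a2 had 144 and 163 against 288, 296 and 330 CPM, 1.99-fold lower, and Col5a3 had 0.802 and 1.1 against 2.04, 2.26 and 2.75 CPM, 2.49-fold lower. Col5a1 was only 1.17-fold lower, at 80.1 and 89 against 89.6, 100 and 108 CPM, so the Col5a1 to Col5a2 TPM ratio was 0.354 to 0.36 against 0.202 to 0.213 in WT. Its call ended when WT replicate 3 or KO-labelled replicate 1 was left out (edgeR adjusted p of 0.0912 and 0.228), and with a length and GC correction (log2 -0.14, adjusted p = 0.0571). Col1a2 had 5.24 and 5.45 against 6.45, 5.96 and 6.76 CPM and did not pass (edgeR adjusted p = 0.246). Col1a1 had 0.214 and 0.0524 against 1.04, 0.392 and 0.422 CPM (edgeR adjusted p = 0.0562).

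Col10a1 was 3.37-fold lower, at 0.749 and 1.15 against 2.42, 3.53 and 3.66 CPM (edgeR adjusted p = 0.000127). Col6a1 was called lower on 2 counts in both KO-labelled libraries together against 21 in WT, a ratio of 5.47 (95% exact interval 1.34 to 48.2), and DESeq2 did not call it (adjusted p = 0.0931). Without WT replicate 2 or 3 or KO-labelled replicate 1, its edgeR adjusted p was 0.0511, 0.138 and 0.319. The Col6a1 call was also lost with a replicate term in the fit, and was kept in 7 of 13 alternatives. Col12a1 was 1.5-fold lower, at 10.6 and 8.49 against 14.5, 13.1 and 15.3 CPM. With effective lengths its difference was -0.03 on the log2 scale (edgeR adjusted p = 0.939), and without KO-labelled replicate 2 it missed the threshold at 0.0536.

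Other chains differed less or were higher. Col25a1 was 1.14-fold lower, at 114 and 111 against 127, 125 and 131 CPM (edgeR adjusted p = 0.00369), a small difference that missed the threshold with a length and GC correction (0.0701). Col19a1 had 78.1 and 73.3 against 77.9, 81.9 and 86.5 CPM and Col13a1 4.12 and 4.93 against 4.03, 6.05 and 4.82, and neither passed. Col7a1 was 1.5-fold higher, at 19.7 and 21.4 against 11.6, 15.5 and 14 CPM, and Col26a1 1.55-fold higher, at 8.66 and 9.33 against 4.98, 6.01 and 6.3 CPM. Both of these calls ended with effective lengths in the fit (edgeR adjusted p of 0.33 and 0.192), where the log2 differences were 0.48 and 0.57 against 0.58 and 0.63.

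Of all genes tested at this stage, 14.1% were lower and 11% higher. The summed fibroblast markers overlapped. The list summed to 1.83 to 1.87 CPM in KO-labelled and 1.52 to 2.18 CPM in WT differentiated myotubes, with 1 of 3 tested genes lower, Ly6a at 0.0262 against 0.503 CPM. That KO-labelled level of Ly6a lies near the floor of these counts. Of 4 tested pericyte or smooth muscle markers 1 was higher (Myh11) and 1 lower (Cspg4), with sums of 78.3 to 80.2 against 73.4 to 83.8 CPM. Cartilage markers summed to 9.73 to 10.2 against 14.3 to 15.7 CPM, without overlap, and their 1 tested gene, Sox9, was lower by log2 -0.57 ± 0.10. Of the 7 myogenic markers 3 were lower, Pax7 by -0.92 ± 0.14, Myod1 by -0.31 ± 0.056 and Myf5 by -0.19 ± 0.057. Pax7, the marker of undifferentiated precursors, averaged 5.63 against 10.6 CPM, between the WT differentiated level and the 3.61 CPM of WT fused myotubes. The position of these libraries along the first principal component, given above, moved with the collagen differences, and its part and that of these markers was not tested.

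In fused myotubes the differences were fewer and went both ways. Of the 29 chains 3 were higher and 5 were lower in KO-labelled libraries, where 13% of all genes tested were called (6.32% higher and 6.72% lower, edgeR with Benjamini-Hochberg adjustment). The median log2 difference was -0.194 for the chains and -0.00625 for all genes. Both main type IV chains were now higher under the KO label. Col4a2 had 34.6, 34.2, 31.8 and 34.6 against 23.1, 23.7, 22 and 22.8 CPM (1.47-fold higher, log2 0.56 ± 0.077, edgeR adjusted p = 1.11e-05), and Col4a1 had 21, 22.5, 21.2 and 21.4 against 16.4, 15.9, 16 and 15.4 CPM (1.35-fold higher, edgeR adjusted p = 0.000356). Without overlap in either chain, all 4 KO-labelled libraries lay above all 4 WT ones.

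The counts of Col4a1 were divided between transcripts. One of them, ENSMUST00000209735, which is annotated for nonsense-mediated decay, held 19.6% to 63% of the estimated counts in WT and up to 18.5% in KO-labelled fused myotubes. With effective lengths in the fit the Col4a1 difference was 0.28 on the log2 scale and was not called (edgeR adjusted p = 0.301), whereas that of Col4a2 kept its call.

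Col5a1 was 1.24-fold higher, at 42.4, 43.1, 38.5 and 41.6 against 31.6, 29.7, 33.9 and 37.2 CPM (edgeR adjusted p = 0.00161), while its partner Col5a2 was lower by log2 -0.32 ± 0.073, at 31.5, 27.7, 24.5 and 29.4 against 33, 31.7, 36.5 and 38.5 CPM (edgeR adjusted p = 0.00339). The Col5a1 to Col5a2 TPM ratio was 0.87 to 1.01 against 0.6 to 0.646 in WT, again without overlap. In myoblasts the same ratio had been 0.136 to 0.139 against 0.129 to 0.139.

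Col8a1 and Col25a1 stayed lower. Col8a1 had 0.188, 0.167, 0.383 and 0.333 against 1.28, 0.888, 1.11 and 0.865 CPM (3.7-fold lower, log2 -1.89 ± 0.37, edgeR adjusted p = 0.000787), on 3 to 9 counts in each KO-labelled library. Col25a1 had 243, 249, 252 and 252 against 303, 313, 316 and 314 CPM (log2 -0.32 ± 0.033, edgeR adjusted p = 9.11e-08), on 3789 to 7630 counts in each library. These 2 chains were called lower at all 3 stages. Col11a2 was 1.63-fold lower, at 6.15, 5.67, 4.9 and 5.73 against 9.77, 7.04, 8.82 and 10.2 CPM, and Col18a1 1.26-fold lower, at 12.5, 12.6, 12.5 and 12.2 against 16.8, 14.1, 16.9 and 15.1 CPM. Both calls ended with effective lengths (edgeR adjusted p of 0.24 and 0.146), at log2 -0.57 and -0.36 against -0.70 and -0.34, and that of Col18a1 also without WT replicate 1 (0.0579).

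Of the marker lists in fused myotubes, 1 of 2 tested tendon markers was higher (Scx, by log2 0.20 ± 0.060), with sums of 85.4 to 106 against 75.9 to 92.4 CPM, and 1 of 7 myogenic markers was lower, Myf5 by log2 -0.31 ± 0.040. Of 3 fibroblast and 4 pericyte or smooth muscle markers tested none passed. Over all genes tested 6.32% were higher and 6.72% lower at this stage. On the first principal component KO-labelled fused myotubes lay at 93.33 to 94.9, without overlap with WT at 89.33 to 90.57. The part of these in the collagen differences was not tested.

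**Figure D4:**
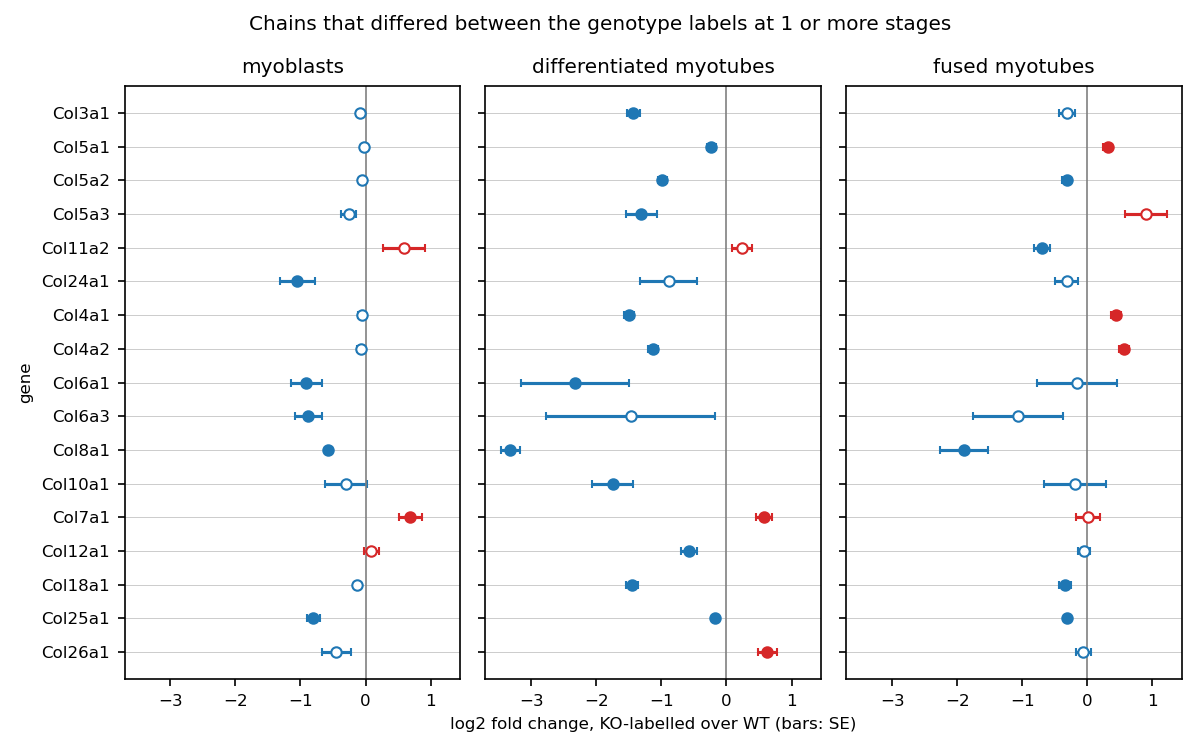
Log2 fold change of KO-labelled over WT at each stage for the 17 chains called at 1 or more stages, with SE bars, blue for lower, red for higher, filled where the edgeR adjusted p was under 0.05. The middle panel holds most of the large negative values, and Col4a1, Col4a2 and Col5a1 change from negative there to positive in the right panel.

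The genotype difference itself changed with stage. From myoblasts to differentiated myotubes it moved for 11 of 29 chains, downward for 9 and upward for 2, against 19.1% of all genes (11.3% downward and 7.78% upward, edgeR interaction test with Benjamini-Hochberg adjustment). Col8a1 moved by -2.76 ± 0.16, Col4a1 by -1.44 ± 0.088, Col3a1 by -1.34 ± 0.11 and Col18a1 by -1.32 ± 0.11 on the log2 scale. From differentiated to fused myotubes it moved for 11 chains, upward for 9 and downward for 2, against 14.8% of all genes (8.27% upward and 6.53% downward). Col4a1 moved by 1.94 ± 0.11 and Col4a2 by 1.69 ± 0.11. Between myoblasts and fused myotubes 8 chains moved, 5 upward and 3 downward, against 10.3% of all genes (5.75% upward and 4.55% downward), with Col4a2 at 0.63 ± 0.097 and Col8a1 at -1.32 ± 0.38. The Col8a1 value was not called without WT fused replicate 1 (edgeR adjusted p = 0.0737), KO-labelled fused replicate 1 (0.07) or replicate 2 (0.0824). With effective lengths both interaction values of Col3a1 missed the threshold (0.216 from myoblasts to differentiated myotubes). The 3 interaction tests share libraries.

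Within the KO-labelled libraries, 9 chains rose and 15 fell from myoblasts to differentiated myotubes (83.7% of all genes called, 41.3% higher and 42.5% lower). From differentiated to fused myotubes 7 rose and 13 fell (70.2%, 35.8% higher and 34.4% lower), and over the whole course 10 rose and 17 fell (87.2%, 42.7% higher and 44.5% lower). Col4a2 shows how the timing differed: it fell by log2 -3.07 ± 0.082 and then by -0.23 ± 0.087 in KO-labelled cells, and by -2.01 ± 0.063 and then -1.92 ± 0.072 in WT. The small second fall was not called without KO-labelled differentiated replicate 2 (edgeR adjusted p = 0.374) or fused replicate 3 (0.0634), and was -0.03 with effective lengths (0.815). Col18a1 likewise fell by -5.38 ± 0.09 and then -0.43 ± 0.11, against -4.06 ± 0.066 and -1.54 ± 0.076 in WT, and its second fall was not called without KO-labelled differentiated replicate 2 (0.0777). Col25a1 rose by 6.22 ± 0.058 in all, against 5.74 ± 0.055.

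The proteins that fold, export, process and crosslink collagen were read from lists of 7 pathways. In KO-labelled differentiated myotubes, 8 of 18 tested folding and modification genes were lower and 1 was higher, where 14.1% of all genes were lower and 11% higher. Fkbp10, a chaperone and isomerase of procollagen, was lower by log2 -1.22 ± 0.13, P3h3, a prolyl 3-hydroxylase family member, by -2.07 ± 0.41, and P3h4, its partner, by -0.65 ± 0.11. Serpinh1, the collagen chaperone HSP47, was lower by only -0.29 ± 0.057 (edgeR adjusted p = 0.000386). The list median was -0.22.

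In processing, 3 of 6 genes were lower and 1 higher, with Pcolce2 at -1.19 ± 0.34, Adamts14, an amino-propeptidase, at -0.73 ± 0.056 and Bmp1, the carboxy-propeptidase, at -0.50 ± 0.075. In crosslinking, 2 of 5 were lower and 1 higher: Lox, the lysyl oxidase, was at -1.66 ± 0.11 and Loxl3 at -1.04 ± 0.19, whereas Tgm2, a transglutaminase, was at 0.73 ± 0.20. The export list had 1 of 8 genes higher and 1 lower, which is near the shares over all genes (11% and 14.1%).

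Degradation and uptake genes had 4 of 8 lower and none higher, again beside 14.1% and 11% of all genes, among them Mmp14, the membrane collagenase, at -1.58 ± 0.10, Timp3 at -1.64 ± 0.41 and Timp1 at -1.02 ± 0.10, the last 2 being metalloproteinase inhibitors. Receptors had 4 of 8 lower, led by Cspg4 at -1.26 ± 0.35 and Cd44 at -0.95 ± 0.052. Matrix proteins that bind collagen had 6 of 11 lower and 1 higher, with Fbn1 (fibrillin-1) at -2.28 ± 0.27, Fn1 (fibronectin) at -2.13 ± 0.12 and Thbs1 (thrombospondin-1) at -1.53 ± 0.064. These values are log2 differences of the edgeR fit and all were called.

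Over all genes 11.6% were called in myoblasts and 13% in fused myotubes. In myoblasts 2 of 18 folding genes were lower, Fkbp10 at -0.44 ± 0.072 and P3h4 at -0.60 ± 0.087, and in fused myotubes 3 were higher and 1 lower, the largest being Crtap at 0.32 ± 0.072. Crosslinking had Loxl4 at -0.75 ± 0.20 and Loxl1 at -0.45 ± 0.086 lower in myoblasts, and Tgm2 at 0.25 ± 0.059 and Loxl1 at 0.17 ± 0.054 higher in fused myotubes. Thbs2, a matricellular thrombospondin, was the 1 gene of all these lists called at every stage, at -1.01 ± 0.087, -1.22 ± 0.23 and -0.63 ± 0.15.

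Across the WT stages the collagen machinery did not move as a block, where 85.5% of all genes were called from myoblasts to fused myotubes (42.2% higher and 43.4% lower). Prolyl 4-hydroxylase subunits parted: P4ha1 rose by log2 1.26 ± 0.045 and P4ha2 by 1.81 ± 0.082 from myoblasts to fused myotubes, while P4ha3 fell by -6.52 ± 0.27. Fkbp10 fell by -3.13 ± 0.091 and Serpinh1 by -1.63 ± 0.048. All 6 tested processing genes fell, with a list median of -2.50. Crosslinking genes parted as well, with Tgm2 at 7.85 ± 0.15, Loxl1 at 2.02 ± 0.069 and Loxl3 at -5.62 ± 0.092. Of 8 export genes 5 rose and 2 fell, a share called that is near that of all genes, with a median of 0.51.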

How the data were processed

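Messenger RNA libraries (19) of cultured mouse myoblasts and myotubes were compared. The authors deposited, per the file headers, an estimated count, a TPM value and an effective length for each of 121843 transcripts. The submitters' processing notes name kallisto 0.46.1, fastp 0.20.0, bcl2fastq 2.20, edgeR 3.36 and build GRCm38.p6, without saying which step each served. Transcripts were joined to GENCODE M21 genes (121018 matched; the 825 others held 0.255% to 0.507% of counts). Estimated counts deposited by the authors were summed per gene and rounded. Deposited TPM was summed per gene and used for levels between genes, without a test.

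All 19 libraries entered 1 edgeR 4.0.16 quasi-likelihood fit (R 4.3.3) with 6 groups, TMM scaling and filterByExpr, which left 15123 genes. P-values were adjusted by Benjamini-Hochberg over all of them, and genes were called under 0.05. There were 12 comparisons. The common biological coefficient of variation was 4.03%, and replicates differed by more than counting noise (chi-square per degree of freedom 2.09 to 7.36). Estimated counts can be shared between similar transcripts, and read depth sets the precision; intervals cover counting error only, since PCR copies are not independent molecules. In simulated counts with 15123 genes, the test recovered 30, 47, 48 and 50 of 50 genes changed 1.25-, 1.5-, 2- and 4-fold between differentiated myotubes, with 16 false calls. The changed genes were drawn from those with a mean of at least 1 CPM in every WT group. These rates therefore do not cover chains below that level.

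Values per library are given for the 4 largest calls between genotypes at each stage, the 3 largest rises and falls at each WT step, and a list of muscle-relevant chains; the other members are summarised. Of the pathway lists, genes called at all 3 stages and up to 3 of the largest calls per list and comparison are named; Serpinh1 and the genes named for the WT stages were chosen after their values were seen. The members, lists and rules were chosen with earlier results of these data known. Alternatives were DESeq2 1.42.0 (its test and its size factors), no TMM, other filters, only the libraries compared, offsets for effective length or for length and GC, a replicate block, and leaving out each library. Promoter sequences are from RefSeq (GRCm38.p6), matched by symbol.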

Additional observations from a re-analysis of the deposited data

Results flagged for a closer look

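In 58 groups of 4 libraries, 4 had a library that stood apart from the other 3, where chance gives about 1 in 20. Col12a1 was at 17 CPM in KO-labelled fused replicate 4, Col4a2 at 31.8 CPM in KO-labelled fused replicate 3, Col24a1 at 3.15 CPM in WT fused replicate 3 and Col17a1 at 0 CPM in WT fused replicate 2.

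The effect of the genotype label differed between stages in 30 interaction tests (edgeR, Benjamini-Hochberg adjusted p under 0.05), given here as log2 differences. From myoblasts to differentiated myotubes it moved by -2.76 for Col8a1, -1.46 for Col10a1, -1.44 for Col4a1, -1.34 for Col3a1, -1.32 for Col18a1, -1.06 for Col4a2, -1.05 for Col5a3, -0.94 for Col5a2 and -0.67 for Col12a1. It moved by 1.08 for Col26a1 and 0.62 for Col25a1. From differentiated to fused myotubes it moved by 2.22 for Col5a3, 1.94 for Col4a1, 1.69 for Col4a2, 1.44 for Col8a1, 1.11 for Col18a1, 1.11 for Col3a1, 0.67 for Col5a2, 0.54 for Col5a1 and 0.53 for Col12a1. It moved by -0.94 for Col11a2 and -0.69 for Col26a1. Between myoblasts and fused myotubes it moved by 1.17 for Col5a3, 0.63 for Col4a2, 0.50 for Col4a1, 0.48 for Col25a1 and 0.33 for Col5a1, and by -1.32 for Col8a1, -1.29 for Col11a2 and -1.12 for Col1a2. With effective lengths in the fit 14 of the 30 were not called. At the first step these were Col10a1 (-1.47), Col5a3 (-0.93), Col3a1 (-0.66) and Col12a1 (0.02), and at the second Col8a1 (1.45), Col26a1 (-0.87, adjusted p = 0.163), Col11a2 (-0.45, 0.599), Col3a1 (0.31, 0.737) and Col12a1 (0.27). Between myoblasts and fused myotubes they were Col11a2 (-1.68), Col1a2 (-1.35), Col5a3 (1.09), Col5a1 (0.32) and Col4a1 (0.27, 0.499).

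Some of the 30 were also not called when a single library was left out. For Col8a1 at 1.44 (adjusted p = 0.0499) this held for WT differentiated replicates 1 and 3, WT fused replicates 2, 3 and 4, KO-labelled differentiated replicate 2 and KO-labelled fused replicates 1, 3 and 4, with adjusted p up to 0.249. This Col8a1 value was also not called with a length and GC correction or with a replicate term in the fit. It was kept in 10 of 23 alternatives. For Col1a2 it held for WT myoblast replicates 1 and 3, WT fused replicates 1, 2 and 3, KO-labelled myoblast replicate 3 and KO-labelled fused replicates 1, 2 and 3 (up to 0.133). For Col10a1 it held for WT myoblast replicate 1, WT differentiated replicate 3, KO-labelled myoblast replicates 2 and 3 and KO-labelled differentiated replicate 1 (up to 0.129). For Col5a3 it held for KO-labelled differentiated replicate 1 at the first step (0.0862), and between myoblasts and fused myotubes for WT fused replicates 1 and 3 and KO-labelled fused replicates 2 and 4 (up to 0.0781). For Col12a1 it held for KO-labelled differentiated replicate 2 (0.0722 and 0.187) and, at the second step, WT differentiated replicate 3 (0.0548), and for Col26a1 at the second step for KO-labelled differentiated replicate 2 (0.0508). For Col8a1 at -1.32 it held for WT fused replicate 1 and KO-labelled fused replicates 1 and 2 (up to 0.0824).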

How the results depend on the processing

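The 207 calls were refitted under each alternative, where it gave the chain a value: a filter at a mean CPM of 1 kept 174 and lost 1, and a fit of only the libraries compared kept 201 and lost 1. Including effective length changed most: 169 were kept, 36 lost and 2 reversed, namely Col7a1 in WT fused myotubes against myoblasts (-0.09) and Col12a1 in the interaction from myoblasts to differentiated myotubes (0.02); the cause was not tested. With it the chains called between genotypes went from 6 to 3 in myoblasts and from 8 to 5 in fused myotubes, and those in the interactions from 11, 11 and 8 to 7, 6 and 3. Calls over all 15123 genes fell as well, from 1747 to 584, from 1972 to 822, and from 2890, 2238 and 1557 to 1455, 982 and 665. With only the libraries compared, 10 chains and 2625 of 13325 genes were called in myoblasts. Leaving out 1 library gave 5 to 9 chains for the interaction between myoblasts and fused myotubes, 5 without WT fused replicate 1 or KO-labelled fused replicate 2. At a threshold of 5 TPM, 12 chains were expressed. As a percent of TPM in place of counts, collagens held 0.0976, 0.0262 and 0.0146 across the WT stages and 0.0914, 0.0154 and 0.0128 across the KO-labelled ones. The replicate block lost 3 of the calls. These were Col6a1 between labels in differentiated myotubes, Col7a1 in WT fused myotubes against myoblasts, and the Col8a1 interaction from differentiated to fused myotubes. With the block, 11 chains were called between labels in fused myotubes, 14 in differentiated myotubes and 6 in myoblasts (1858, 3667 and 1666 of all genes). Over all genes, same-numbered libraries did not deviate together (r from -0.0894 to 0.102 over 41 pairs). A pairing confined to few genes would not show in this measure. DESeq2's test kept 204 calls and lost 2. Chains below about 1 CPM rest on low counts, and whether depth or replicate spread limited their precision was not tested.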
